A study of Mus musculus with 6 samples.

Results

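The RIG-I-like receptors and the genes that act with them in the cytosolic response to RNA were examined in microglia from the cerebellum of Fmr1 knockout mice. Microglia, the brain's own macrophages, survey it for infection, and loss of Fmr1 models fragile X syndrome. The members were 10 genes chosen by symbol from the 23491 rows of the deposited count table: 3 receptors (Rigi, Ifih1, Dhx58), 3 effectors (Ddx60, Eif2ak2, Adar) and 4 adaptors or kinases (Mavs, Tbk1, Ikbke, Traf3). All 10 had a row and all 10 passed the filter on low counts, which kept 14727 genes. Libraries came from 3 samples of mice given poly(I:C), a synthetic double-stranded RNA, by intraperitoneal injection, and from 3 samples of mice given saline, which the sample titles call sham. Both groups carry the Fmr1 knockout, and no wild-type mice are among the samples, so the values describe knockout cells only. The labels give neither the age of the animals, the dose of poly(I:C), the time after injection, nor whether replicates were separate animals, so a p-value here speaks only of the spread among these libraries, part of which may be technical.

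RIG-I-like receptors are helicases of the cytosol that bind viral or synthetic double-stranded RNA. RIG-I and MDA5 carry caspase-recruitment domains that pass the signal to MAVS on the mitochondrial outer membrane, from which TRAF3 and the kinases TBK1 and IKKε lead to phosphorylation of interferon regulatory factors and to type I interferon. Interferon in turn induces many of the genes that sense RNA or act on it, which is a known feedback of the pathway in macrophages and other cells.

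The libraries held between 33710545 and 34899835 counts. Summed over 13 markers, microglial transcripts stood between 31741 and 43973 CPM (counts scaled to library size, with TMM factors) in poly(I:C) libraries and between 40460 and 46618 CPM in saline libraries, and 0 of the 13 were at 0 throughout. Cells were enriched on beads against CD11b, which neutrophils and other macrophages also carry. The sum of 13 neutrophil markers was between 1813 and 3297 CPM with poly(I:C) and between 3767 and 22857 CPM with saline, the highest in saline replicate 1. Of these markers Csf3r did not follow the others, with 945 to 1315 CPM in poly(I:C) libraries and 1291 to 1359 CPM in saline libraries. The sum without it, an alternative chosen after seeing the data, was 2351, 498 and 586 CPM across poly(I:C) replicates 1 to 3 and 21498, 2528 and 2436 CPM across saline replicates 1 to 3. The sum of 10 choroid plexus markers was between 7644 and 19320 CPM with poly(I:C), the highest in replicate 1, and between 3983 and 8511 CPM with saline. In bulk RNA, fewer cells of a type and less RNA per cell cannot be told apart.

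Poly(I:C) was set against saline to ask how peripheral double-stranded RNA bears on this pathway in cerebellar microglia. All 3 receptors and all 3 effectors were higher with poly(I:C), by between 2.49-fold and 5.78-fold, and 0 of the 4 adaptors and kinases were called in either direction. Calls rest on a threshold of 0.05 for the p-value of edgeR's quasi-likelihood test, adjusted over all tested genes by Benjamini-Hochberg, which called 0.883% of them higher and 0.0747% lower. The median log2 fold change was 1.97 for the receptors, 2.29 for the effectors and −0.06 for the adaptors and kinases, beside 0.0098 over all tested genes. Of the adaptors and kinases, 2 had an unadjusted p under 0.05 in edgeR (Tbk1 higher and Traf3 lower), as had 3136 of all 14727 tested genes. DESeq2 called 0 of the 4. Limma-voom called Tbk1 and Traf3, in a fit that called 1268 of the 14727 genes higher and 1608 lower. In CPM, all 3 poly(I:C) libraries stood above all 3 saline libraries for 7 of the 10 members, as they did for 14.0% of tested genes, and below them for 1 member, as for 14.3% of tested genes. Without poly(I:C) replicate 3, saline replicate 2 or saline replicate 3 the number of members called higher was 4 in each case, because Ifih1 and Ddx60 then missed the threshold.

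**Figure D1:**
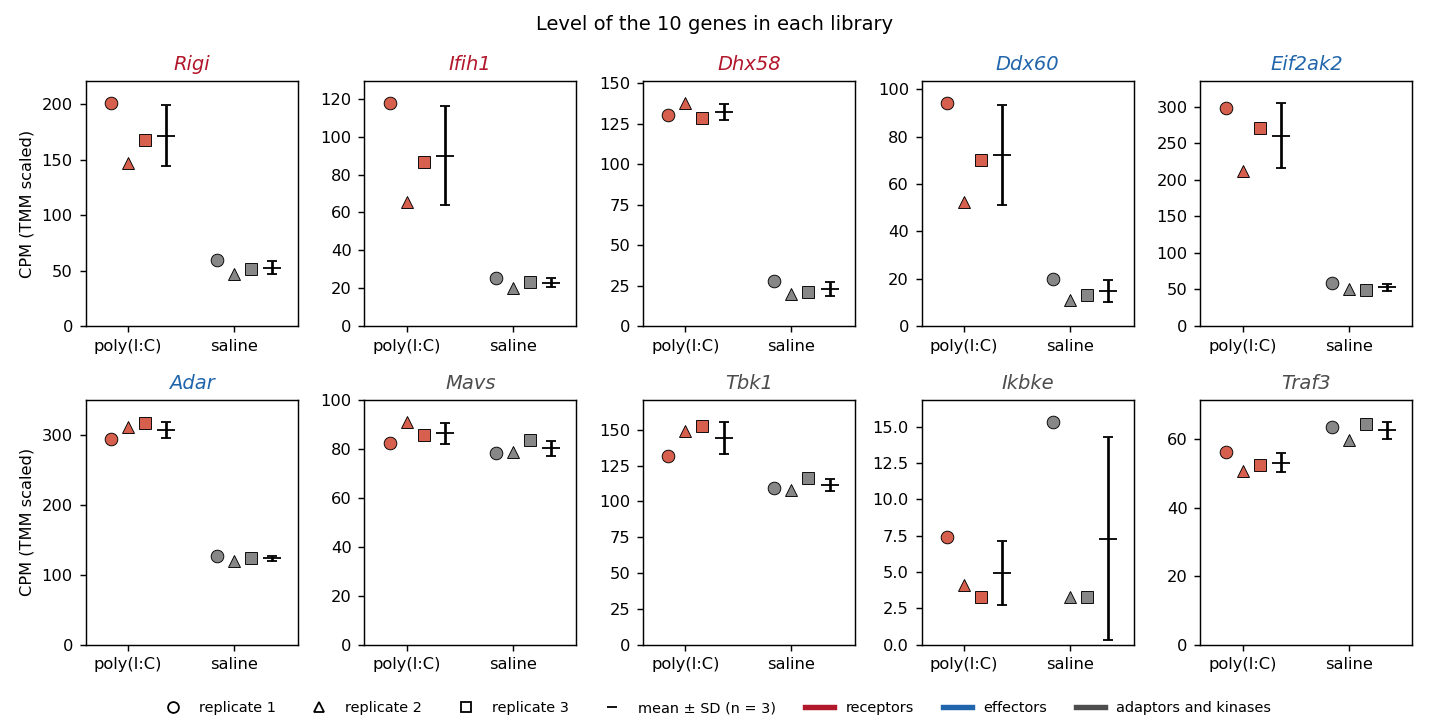
TMM-scaled CPM of each of the 10 genes on a linear axis from 0, with poly(I:C) libraries on the left of each panel, saline libraries on the right, one symbol per replicate number, and a bar for the mean ± SD (n = 3). The receptors and effectors separate by group, Mavs overlaps, Tbk1 sits a little higher and Traf3 a little lower with poly(I:C), and Ikbke is highest in saline replicate 1.

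Rigi encodes RIG-I, the sensor of RNA with triphosphate ends and of short double strands. It stood at 201, 147 and 168 CPM across poly(I:C) replicates 1 to 3, against 59.2, 47.3 and 51.4 CPM across saline replicates 1 to 3. Every poly(I:C) library was far above every saline library. The mean was 172 ± 27.3 CPM with poly(I:C) and 52.6 ± 6.03 CPM with saline (SD, n = 3 each), a 3.27-fold difference (log2 1.71, SE 0.14, edgeR adjusted p = 0.00290). It was called in all 6 fits that left out 1 library.

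Ifih1 encodes MDA5, the cytosolic receptor that responds to long double-stranded RNA such as poly(I:C). Its level was 118, 65.5 and 86.9 CPM across poly(I:C) replicates 1 to 3 and 25.2, 20.3 and 23.4 CPM across saline replicates 1 to 3. The groups did not overlap, but the poly(I:C) libraries spread 1.80-fold from the lowest to the highest. Ifih1 was 3.92-fold higher with poly(I:C) (log2 1.97, SE 0.22, edgeR adjusted p = 0.00995). The log2 fold change was 2.00 without poly(I:C) replicate 3, 1.89 without saline replicate 2 and 1.98 without saline replicate 3, and the adjusted p was then 0.0611, 0.0541 and 0.0781.

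Dhx58 encodes LGP2, which binds double-stranded RNA but lacks the caspase-recruitment domains and tunes signalling by the other receptors. It had the largest difference of the 10 members, at 130, 138 and 129 CPM across poly(I:C) replicates 1 to 3 against 27.8, 19.9 and 20.9 CPM across saline replicates 1 to 3. The poly(I:C) libraries lay within 1.07-fold of each other, the closest agreement among the receptors. The log2 fold change was 2.53 (SE 0.14, edgeR adjusted p = 0.000698), or 5.78-fold with a 95% interval of 4.58-fold to 7.30-fold. An antisense gene, Dhx58os, overlaps its exons in GENCODE M21 and has no row under that symbol among the deposited counts. Since libraries made by transposition of full-length cDNA do not keep the strand, reads of the pair cannot be told apart.

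Of the effectors, Eif2ak2 encodes PKR, the kinase that is activated by double-stranded RNA and phosphorylates the translation factor eIF2α. It stood at 298, 212 and 270.4 CPM across poly(I:C) replicates 1 to 3, against 58.2, 50.7 and 49.8 CPM across saline replicates 1 to 3. All poly(I:C) libraries were above all saline libraries, with replicate 1 the highest in each group. The means of 260.2 ± 44.2 CPM with poly(I:C) and 52.9 ± 4.6 CPM with saline gave a 4.92-fold difference (log2 2.3, SE 0.15, edgeR adjusted p = 0.00108). Exons of Gm26637 and n-R5s29 overlap those of Eif2ak2 in GENCODE M21. Gm26637 had between 8 and 52 counts in the 6 libraries, and n-R5s29 has no row under that symbol. The genes of the other eIF2α kinases, chosen after their values were seen, were Eif2ak1, Eif2ak3 and Eif2ak4, which had log2 differences of −0.07, −0.24 and −0.03 and none was called (edgeR adjusted p = 0.592, 0.289 and 0.905).

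Ddx60 encodes an interferon-inducible helicase reported to assist RIG-I signalling. Its level was 94.1, 52.2 and 70.2 CPM across poly(I:C) replicates 1 to 3, and 19.9, 11.1 and 13.3 CPM across saline replicates 1 to 3. The groups did not overlap, and within each group replicate 1 was the highest and replicate 2 the lowest. Ddx60 was 4.88-fold higher with poly(I:C) (log2 2.29, SE 0.29, edgeR adjusted p = 0.0185), with the largest standard error of the 6 called members. The log2 fold change was 2.31 without poly(I:C) replicate 3, 2.12 without saline replicate 2 and 2.21 without saline replicate 3, where the adjusted p was 0.0977, 0.0646 and 0.130.

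Adar encodes ADAR1, which converts adenosine to inosine in double-stranded RNA and so keeps the cell's own RNA from being sensed by MDA5. It stood at 295, 311 and 316 CPM across poly(I:C) replicates 1 to 3 and at 126, 119 and 124 CPM across saline replicates 1 to 3. Both groups were tight, with a coefficient of variation of 3.72% in poly(I:C) libraries and 2.87% in saline libraries. The log2 fold change of 1.32 (SE 0.07, edgeR adjusted p = 0.000698) was the smallest of the 6 called members and had the smallest standard error. Counts were summed per gene, so the interferon-inducible and the constitutive ADAR1 isoforms cannot be told apart. Exons of Chrnb2 overlap those of Adar in GENCODE M21, and it had between 8 and 29 counts in the 6 libraries. The gene of a second editing enzyme, Adarb1 (ADAR2), chosen after its values were seen, had a log2 difference of 0.37 and was not called (edgeR adjusted p = 0.288).

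**Figure D2:**
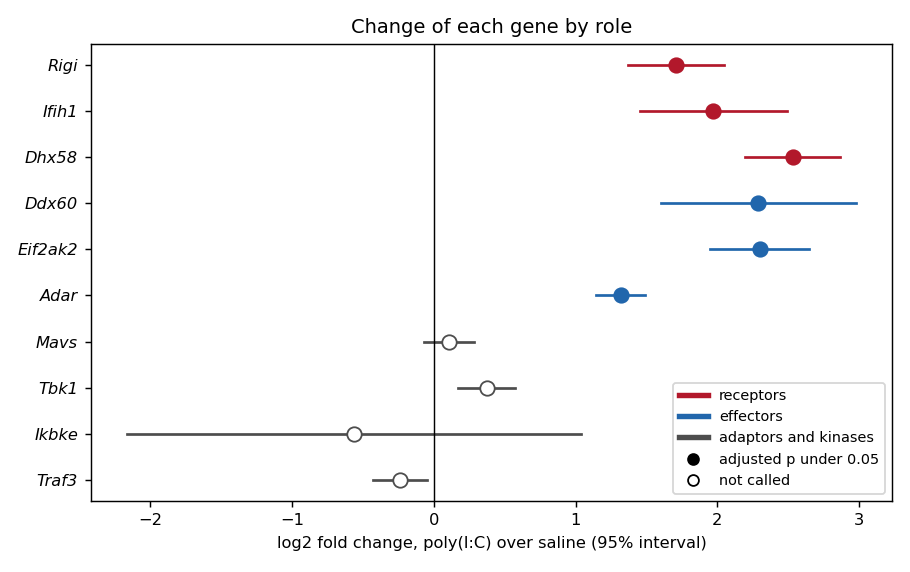
Log2 fold change of poly(I:C) over saline for each of the 10 genes with its 95% interval from the edgeR fit, coloured by role and filled where the adjusted p was under 0.05. The 6 receptors and effectors lie between 1.32 and 2.53, and the 4 adaptors and kinases between −0.56 and 0.37.

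The adaptor and kinase genes had log2 differences between −0.56 and 0.37. Mavs, the gene of the mitochondrial adaptor, was at 82.3, 90.9 and 85.6 CPM across poly(I:C) replicates 1 to 3 and at 78.2, 78.5 and 83.7 CPM across saline replicates 1 to 3. The groups overlapped. Its log2 difference of 0.11 (SE 0.08, edgeR adjusted p = 0.417) had a 95% interval that reached from 0.952-fold to 1.22-fold, which leaves out changes of the size seen for the receptors.

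Tbk1 encodes the kinase that phosphorylates IRF3 and IRF7 downstream of MAVS. It was at 132, 149 and 153 CPM across poly(I:C) replicates 1 to 3 against 110, 108 and 117 CPM across saline replicates 1 to 3. The groups did not overlap, yet the 1.30-fold difference missed the threshold (log2 0.37, SE 0.08, edgeR adjusted p = 0.119). With both replicates numbered 1 left out it was called, at a log2 fold change of 0.45 (edgeR adjusted p = 0.0327). It was also called in limma-voom with quality weights, at 0.42 (adjusted p = 0.00927).

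Ikbke encodes IKKε, the inducible relative of TBK1, and was the least abundant member. It had 261, 139 and 114 counts across poly(I:C) replicates 1 to 3 (7.42, 4.11 and 3.28 CPM) against 504, 113 and 111 counts across saline replicates 1 to 3 (15.3, 3.26 and 3.27 CPM). Saline replicate 1 was the highest library, poly(I:C) replicate 1 the second, and the other 4 lay close together. The log2 difference of −0.56 (SE 0.67, edgeR adjusted p = 0.633) turned to 0.57 without saline replicate 1 (adjusted p = 0.433). Exons of Gm28913 and Gm28914 overlap those of Ikbke in GENCODE M21. Gm28913 had 0 or 1 counts in each library, and Gm28914 has no row under that symbol. The summed neutrophil markers were at 3297, 1813 and 1837 CPM across poly(I:C) replicates 1 to 3 and at 22857, 3818 and 3767 CPM across saline replicates 1 to 3, so that saline replicate 1 was again the highest, as it was without Csf3r. S100a8, one of the neutrophil markers, chosen after its values were seen, was between 75.4 and 368 CPM in poly(I:C) libraries and between 280.4 and 2655 CPM in saline libraries. The sums of 7 monocyte and 10 lymphocyte markers were also highest in saline replicate 1, at 2266 and 48.3 CPM. The other libraries reached at most 579 and 21.1 CPM. The part of neutrophil, monocyte or lymphocyte RNA in the Ikbke values was not tested.

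Traf3 encodes a ubiquitin ligase that links MAVS to TBK1 and restrains non-canonical NF-kB signalling. It was at 56.2, 50.9 and 52.4 CPM across poly(I:C) replicates 1 to 3 and at 63.7, 59.8 and 64.4 CPM across saline replicates 1 to 3. All poly(I:C) libraries were below all saline libraries. The log2 difference of −0.24 (SE 0.08, edgeR adjusted p = 0.190) was not called, and limma-voom with quality weights called it lower at −0.25 (adjusted p = 0.0298).

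Levels of different genes were compared per kilobase of exon, with exon lengths from GENCODE M21, since longer transcripts collect more reads. Each length was the union of a gene's exons over all its annotated transcripts, so ranks between genes depend in part on the annotation. With saline, the kinase gene Tbk1 and the adaptor gene Mavs led, at 28.5 ± 1.12 and 24.0 ± 0.92 CPM per kilobase. Both were above Adar at 15.2 ± 0.44 and Eif2ak2 at 10.3 ± 0.90 CPM per kilobase (SD, n = 3). With poly(I:C), Eif2ak2 led at 50.9 ± 8.64 CPM per kilobase, followed by Dhx58 at 40.4 ± 1.47, Adar at 37.9 ± 1.41 and Tbk1 at 37.0 ± 2.84 CPM per kilobase, while Mavs was at 25.8 ± 1.30 and Rigi at 24.4 ± 3.87 CPM per kilobase. Among these, the libraries of Eif2ak2 and Dhx58, of Adar and Tbk1, and of Mavs and Rigi overlapped with poly(I:C). Dhx58 moved in rank order to the second of 10 with poly(I:C), against the seventh with saline, where its level of 6.99 ± 1.32 CPM per kilobase overlapped that of Rigi at 7.47 ± 0.85 CPM per kilobase. Ifih1 stood at 11 ± 3.21 CPM per kilobase with poly(I:C) and 2.81 ± 0.30 with saline, below Rigi in every library, and Ddx60 at 8.31 ± 2.42 with poly(I:C) and 1.7 ± 0.53 CPM per kilobase with saline. Traf3, at 7.23 ± 0.38 CPM per kilobase with poly(I:C) and 8.52 ± 0.34 with saline, overlapped Ddx60 with poly(I:C) and Rigi with saline, and Ikbke was the lowest on average in both groups, at 0.55 ± 0.24 with poly(I:C) and 0.81 ± 0.77 CPM per kilobase with saline.

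Ratios of counts between 2 members of one library need no scaling between libraries, and 8 pairs within a role were compared. Dhx58 gained on Rigi: the log2 count ratio was −0.62, −0.09 and −0.39 across poly(I:C) replicates 1 to 3 against −1.09, −1.25 and −1.30 across saline replicates 1 to 3, a difference of 0.85 without overlap. Dhx58 over Ifih1 shifted by 0.61, also without overlap, though poly(I:C) replicate 1 at 0.149 and saline replicate 1 at 0.143 almost met. Ifih1 over Rigi shifted by 0.23 and overlapped. Among effectors, Eif2ak2 over Adar shifted by 0.97 and Ddx60 over Adar by 0.97, both without overlap. For Ddx60 over Adar, poly(I:C) replicate 2 at −2.58 and saline replicate 1 at −2.66 lay close together. Ddx60 over Eif2ak2 shifted by 0.004 with overlap and changed sign when single libraries were left out. Mavs over Traf3 shifted by 0.34 without overlap, and Ikbke over Tbk1 by −0.61 with overlap, which became 0.14 without saline replicate 1. The 5 pairs without overlap each gave p = 0.10 in a two-sided exact permutation test, the smallest value that 3 against 3 libraries can give, and 0.16 after Benjamini-Hochberg adjustment over the 8 pairs, so none passed.

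Several members shared one order of the libraries within a group. With poly(I:C), Rigi, Ifih1, Ddx60 and Eif2ak2 were each highest in replicate 1 and lowest in replicate 2, by 1.37-fold, 1.80-fold, 1.80-fold and 1.41-fold, and Traf3 had the same order over a 1.11-fold range. That order was also the most frequent among all genes called higher, at 75 of 130 (57.7%), and held for 33.1% of all tested genes. Dhx58 and Adar did not follow it, and their poly(I:C) libraries each lay within 1.07-fold. With saline, replicate 1 was the highest library for all 6 called members. How many of all tested genes shared this was not counted. Saline replicate 1 also had the highest neutrophil sum, 22857 CPM, against 3818 and 3767 CPM in saline replicates 2 and 3. Poly(I:C) replicate 1 had the highest choroid plexus sum, 19320 CPM, while poly(I:C) replicates 2 and 3 had 7644 and 9299 CPM, and the lowest microglial sum, 31741 CPM against 43973 and 40833 CPM. The part of these marker sums in the library order of either group was not tested.

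**Figure D3:**
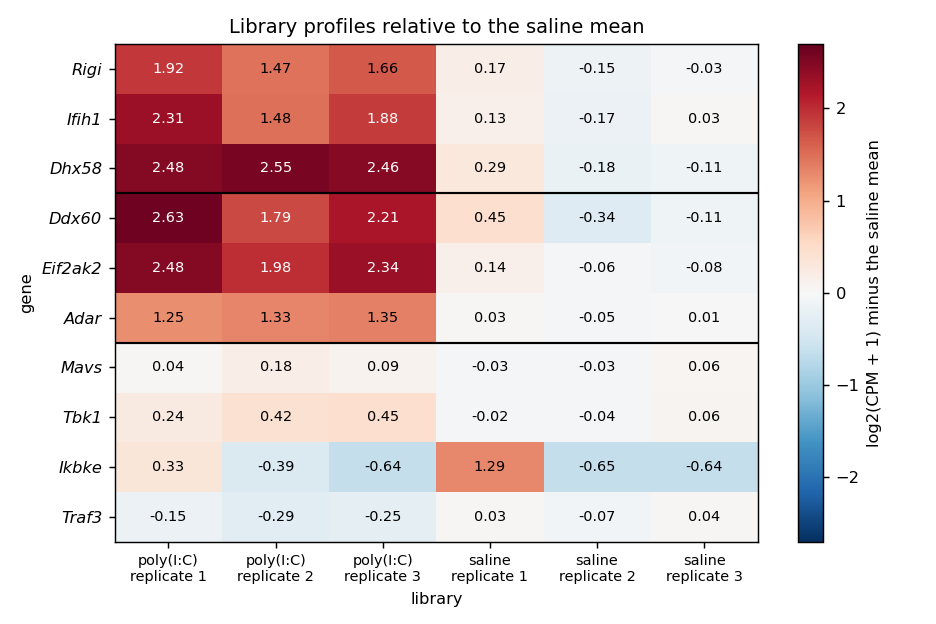
Each cell gives log2(CPM + 1) minus the mean of the 3 saline libraries for one gene (rows, grouped by role) in one library (columns). Receptors and effectors are between 1.25 and 2.63 in the poly(I:C) libraries, Ikbke stands out at 1.29 in saline replicate 1, and Mavs, Tbk1 and Traf3 stay between −0.29 and 0.45.

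The genes whose profile over the 6 libraries was nearest to the mean of the 3 receptors included Trim30a, Rnf213, Parp14 and Herc6, by the root mean square distance of log2(CPM + 1) centred on the saline mean among 10662 genes outside the members whose mean reached 5 CPM. Trim30a was the nearest, at a distance of 0.056, with a mean of 380 ± 63.4 CPM with poly(I:C) and 88.9 ± 10.3 CPM with saline. The receptors, which make up that mean, lay at 0.16 (Ifih1), 0.24 (Rigi) and 0.36 (Dhx58) from it. Of the other members, Eif2ak2 lay at 0.19 and Ddx60 at 0.22, nearer than Rigi and Dhx58, Adar lay at 0.53, and the adaptors and kinases lay between 1.19 and 1.7.

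Promoter stretches of 5 of the 6 called members are shown, with those of Mavs and Tbk1, which were not called, for contrast, because an interferon-stimulated response element, a site bound by interferon-activated transcription factors, is commonly written as spaced repeats of GAAA. RefSeq windows of 250 bases before to 50 after an annotated start were matched for 9 of the 10 members, all but Dhx58, in build GRCm38.p6, which differs from the GRCm39 of the counts, so no coordinate was carried over. A motif of GAAA, 2 bases of any kind and a second GAAA was searched on both strands and occurred in 3.44% of all 32851 windows of that length. It was found for Rigi, Ifih1, Eif2ak2 and Ddx60, with 2 matches in Ddx60. A motif shorter by its last A, which every match to the longer motif contains, occurred in 8.56% of windows. It was the form found in Adar, with 2 matches in the window of the most downstream of 3 annotated starts, and Ifih1 held 1 such match beside the longer one, on the opposite strand. In Eif2ak2 a further match to it overlapped the longer one. Neither motif was found in the windows of Mavs, Tbk1, Ikbke or Traf3, which says only that these letters are not in those windows. Among the 103 genes called higher that matched a window by symbol, 38 held the longer motif (36.9%). The share was 3.99% of all 27025 genes with a window, whether or not they were tested here. Rigi, whose window carries its older symbol, was not among the 103. The stretches below run 5′ to 3′ on the strand of the gene from 60 bases before the start to 49 after it, with capitals on the longer motif, on either strand, or on the shorter motif where the longer one was lacking.
Rigi, chr4:40239776-40239885 (minus strand): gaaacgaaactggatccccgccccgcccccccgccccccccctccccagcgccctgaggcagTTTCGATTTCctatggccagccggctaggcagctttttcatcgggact
Ifih1, chr2:62646206-62646315 (minus strand): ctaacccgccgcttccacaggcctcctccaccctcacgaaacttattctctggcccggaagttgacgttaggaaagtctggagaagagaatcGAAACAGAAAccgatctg
Ddx60, chr8:61928027-61928136 (plus strand): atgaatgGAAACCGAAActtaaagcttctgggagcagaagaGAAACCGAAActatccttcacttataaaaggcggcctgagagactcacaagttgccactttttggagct
Eif2ak2, chr17:78882523-78882632 (minus strand): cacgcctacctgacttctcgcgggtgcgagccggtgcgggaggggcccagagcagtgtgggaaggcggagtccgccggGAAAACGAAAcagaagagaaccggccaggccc
Adar downstream start, chr3:89730658-89730767 (plus strand): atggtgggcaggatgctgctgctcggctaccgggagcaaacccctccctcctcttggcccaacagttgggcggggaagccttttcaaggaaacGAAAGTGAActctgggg
Mavs, chr2:131234003-131234112 (plus strand): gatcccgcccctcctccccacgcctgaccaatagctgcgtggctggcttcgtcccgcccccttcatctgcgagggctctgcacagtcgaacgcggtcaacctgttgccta
Tbk1, chr10:121586745-121586854 (minus strand): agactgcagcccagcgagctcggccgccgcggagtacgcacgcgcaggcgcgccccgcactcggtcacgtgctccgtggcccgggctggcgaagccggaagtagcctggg

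The match in Rigi began 2 bases after the start, on the opposite strand. Those in Ifih1 and Eif2ak2 began 32 and 18 bases after it, on the strand of the gene. The 2 matches in Ddx60 began 53 and 19 bases before its start, and the capitals in Adar begin 33 bases after its start, its other match lying 249 bases before it. A match is a description of the letters and does not show that a factor bound there.

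**Figure D4:**
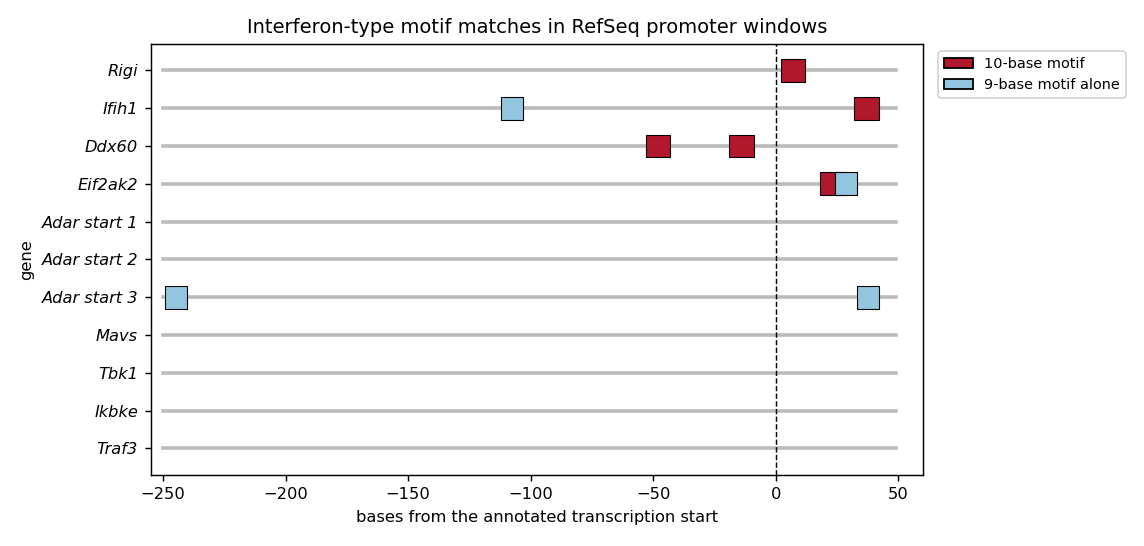
Matches to the motifs (boxes) in the RefSeq promoter window of each gene (grey line, from 250 bases before to 49 after the annotated start at 0). The 10-base motif is in red, and 9-base matches not contained in it are in blue. In Eif2ak2 the blue box overlaps the red one. The 10-base motif appears for Rigi, Ifih1, Ddx60 and Eif2ak2, and the rows of Mavs, Tbk1, Ikbke and Traf3 are empty.

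The other genes of the pathway were followed in 5 lists by role. No gene of these lists was called lower in edgeR, where 12 of the 85 tested had an unadjusted p under 0.05 in that direction and 17 in the other. Over all 14727 tested genes, 3136 had an unadjusted p under 0.05 in either direction. DESeq2 called 4 genes of the lists lower and limma-voom 12, beside 448 and 1608 over all genes. Of the 15 tested genes in the list of other RNA sensors and effectors, 4 were higher and 0 lower, with a median log2 fold change of 0.40. Zbp1, a sensor of left-handed nucleic acids, was at 66.1 ± 21.3 CPM with poly(I:C) and 5.84 ± 2.83 CPM with saline, an 11.3-fold difference (edgeR adjusted p = 0.0133). Oas1a and Oas2, whose products are synthetases activated by double-stranded RNA, rose 7.21-fold and 4.55-fold (edgeR adjusted p = 0.00386 and 0.0136), though reads of Oas genes can be shared between close paralogs. Tlr3, the endosomal receptor of double-stranded RNA, was at 179 ± 19.8 CPM with poly(I:C) and 89.2 ± 5.23 CPM with saline (2.00-fold, edgeR adjusted p = 0.00732). Tlr7, the endosomal receptor of single-stranded RNA, had a log2 difference of 0.40 (edgeR adjusted p = 0.119), which DESeq2 called at 0.38 (adjusted p = 0.0246).

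Of the 18 tested cofactors of the receptors, 2 were higher and 0 lower, with a median log2 fold change of −0.03. Trim25, a ubiquitin ligase for RIG-I, was at 143 ± 18.2 CPM with poly(I:C) and 68.5 ± 12.4 CPM with saline (2.09-fold, edgeR adjusted p = 0.0323), and Zc3hav1, the zinc-finger antiviral protein ZAP, was 1.77-fold higher (edgeR adjusted p = 0.0401). Rnf135, which also ubiquitinates RIG-I, was at 42.1 ± 6.46 CPM with poly(I:C) and 49 ± 3.13 CPM with saline and was not called (edgeR adjusted p = 0.346), a gene chosen after its values were seen. Dhx36 and Ppp1ca had log2 differences of 0.37 and −0.36 (edgeR adjusted p = 0.155 and 0.188).

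Below MAVS, 1 of 23 tested genes was higher and 0 lower, with a median of −0.05. It was Irf7, the interferon regulatory factor that amplifies the response, at 331 ± 64.0 CPM with poly(I:C) and 21.2 ± 6.51 CPM with saline. Irf3, the other factor phosphorylated by TBK1, was at 90.8 ± 10.7 CPM with poly(I:C) and 108 ± 6.39 CPM with saline and was not called (edgeR adjusted p = 0.226), a gene chosen after its values were seen. Azi2 (NAP1), a TBK1 adaptor, and the NF-kB subunit gene Rela had log2 differences of 0.51 and −0.43 (edgeR adjusted p = 0.146 and 0.140), which DESeq2 called at 0.47 and −0.46 (adjusted p = 0.0398 and 0.0472).

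Of the 24 tested inhibitors, 1 was higher and 0 lower, with a median of −0.10. It was Nlrc5, better known as the activator of MHC class I genes and reported to restrain MAVS signalling, at 44.2 ± 2.75 CPM with poly(I:C) and 9.35 ± 3.71 CPM with saline (4.73-fold, edgeR adjusted p = 0.0185). Marchf5 and Pcbp1, both reported to lower MAVS activity, had log2 differences of 0.58 and −0.47 (edgeR adjusted p = 0.112 and 0.121), which DESeq2 called at 0.55 and −0.49 (adjusted p = 0.00928 and 0.0213). In the list of interferons and their receptors, 0 of 5 tested genes were called in edgeR and 1 had an unadjusted p under 0.05. DESeq2 and limma-voom each called 1 lower and 0 higher. Ifnb1 was the only interferon gene among those tested, and the others encode receptor chains. The interferon alpha and gamma genes of the list had no row under their symbol or too few counts to be tested. Ifnlr1, the interferon lambda receptor gene, had 65, 11 and 21 counts across poly(I:C) replicates 1 to 3 and 475, 70 and 94 across saline replicates 1 to 3 (log2 −2.79, SE 0.97, edgeR adjusted p = 0.193). Saline replicate 1, the library with the highest neutrophil, monocyte and lymphocyte marker sums, was the highest. Without it the log2 difference was −1.40 (edgeR adjusted p = 0.332). With all 6 libraries DESeq2 called Ifnlr1 lower at −2.84 (adjusted p = 0.00883) and limma-voom at −2.31 (adjusted p = 0.0447). The part of RNA from those cell types in these values was not tested. Il10rb had a log2 difference of −0.06. Ifnb1, chosen after its values were seen, had 22, 15 and 36 counts across poly(I:C) replicates 1 to 3 and 21, 13 and 24 across saline replicates 1 to 3, with overlap (log2 0.29, SE 0.50, edgeR adjusted p = 0.747).

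Over these 5 lists 8 of 85 tested genes were higher, beside the 0.883% of all tested genes. The number moved to 5, 5 and 2 without poly(I:C) replicates 1, 2 and 3, to 5 and 3 without saline replicates 2 and 3, and to 10 without saline replicate 1. Irf7 and Oas1a were called in all 6 of those fits, Tlr3, Zbp1 and Oas2 in 4, Nlrc5 in 2, and Trim25 and Zc3hav1 in 1.

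**Figure D5:**
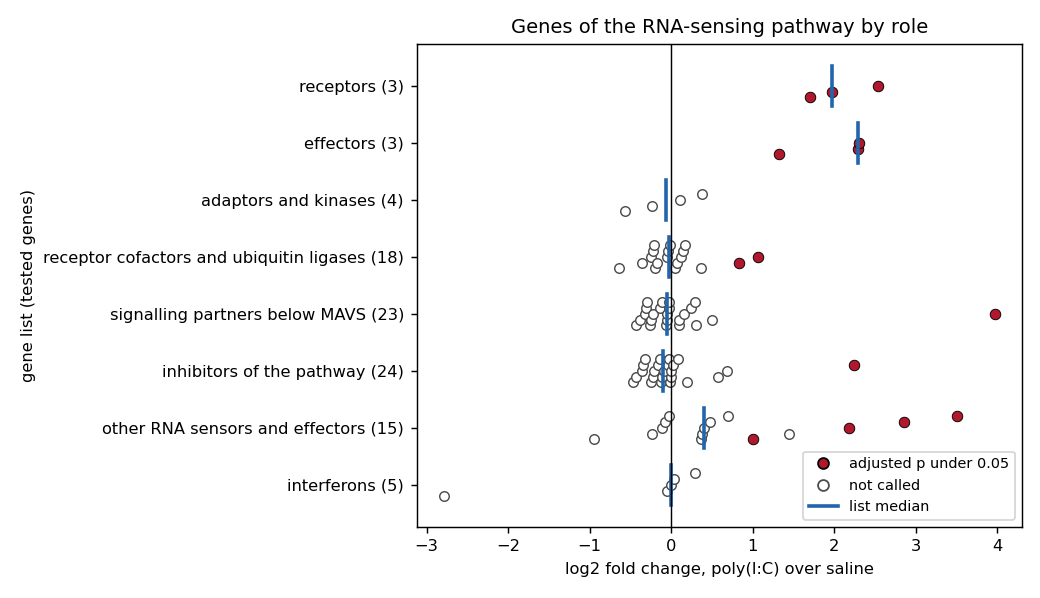
Log2 fold change of poly(I:C) over saline for every tested gene of the 3 member roles and of 5 further lists, with the number tested in brackets, red points for genes with an adjusted p under 0.05 and a blue bar at each list's median. The receptor and effector genes lie to the right of 1, and the medians of the cofactor, signalling and inhibitor lists lie between −0.10 and −0.03.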

How the data were processed

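Total RNA of CD11b-enriched cerebellar cells from Fmr1 knockout mice was made into full-length cDNA and Nextera XT libraries, per the labels' protocols, with PCR and no stated molecular identifiers, so counts are of reads. The deposited values are raw counts, 1 row per gene symbol and 1 column for each library, with no normalisation. The labels do not say whether a library came from 1 animal or from a pool. The submitters' processing notes list fastp, HISAT2, HTSeq and build GRCm39. Versions, settings, strand mode, annotation: all not given in the sources used here.

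From these counts edgeR 4.0.16 in R 4.3.3 was fitted over all 6 libraries (filterByExpr within groups, TMM scaling, glmQLFit and glmQLFTest, no covariate, Benjamini-Hochberg over all 14727 tested genes, called under 0.05). Dividing the size of a log2 fold change by the root of its F statistic gave its standard error. Library totals were 33710545 to 34899835. The script was checked on simulated data. Replicates differed by more than counting noise (chi-square per gene between 21.2 and 113). Exon lengths and overlaps are from GENCODE M21 (GRCm38), promoters from RefSeq (GRCm38.p6), with Rigi matched by its older symbol Ddx58.

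The 10 members, the lists and the tests were chosen with earlier results of these data known. Named genes were the members, the called genes and the 2 next smallest p of each pathway list, and the 5 likest profiles. Of the genes this rule names, 2 are not reported here. Other genes are marked in the text as picked later, with values known. Of 93 pathway list entries, some of them alternate symbols, 88 had a row and 85 were tested. Alternatives were RLE, upper-quartile and total scaling, no filter, a filter of 5 CPM in 3 libraries, a replicate block, limma-voom (limma 3.58.1) with quality weights, DESeq2 1.42.0, leaving out each library, and leaving out both replicates numbered 1.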

Additional observations from a re-analysis of the deposited data

How the results depend on the processing

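Rigi, Dhx58, Eif2ak2 and Adar were called higher under all 15 alternatives tried, and the log2 fold changes of all 6 called members stayed between 1.29 and 2.73. Leaving out 1 library moved Ifih1 between 1.75 and 2.15 and Ddx60 between 2.07 and 2.55. It moved Ikbke between −0.96 and 0.57, and leaving out both replicates numbered 1 turned Ikbke to 0.20; the cause was not tested. Ikbke was not tested under the 5 CPM filter. Leaving out both replicates numbered 1 gave 0.45 for Tbk1, and limma-voom gave 0.42 for Tbk1 and −0.25 for Traf3, all then called, so members called lower were 1 there.

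Over all genes, calls were 130 higher and 11 lower; 355 and 214 without both replicates numbered 1; 1268 and 1608 in limma-voom; 557 and 448 in DESeq2; and 18 lower without a filter. Leaving out 1 library gave 51 to 167 higher and 0 to 20 lower. Of the calls, 92.2% were higher in edgeR, 65.8% with the replicate block, 62.4% without both replicates numbered 1, 55.4% in DESeq2 and 44.1% in limma-voom. Pathway genes called higher were 20 in limma-voom and 2 to 10 with 1 library left out. Pathway genes called lower were 12 in limma-voom, 4 in DESeq2, 1 without a filter, 1 with the replicate block, 1 without both replicates numbered 1, and 0 to 1 with 1 library left out.

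The log2 ratio of Ddx60 over Eif2ak2 moved between −0.15 and 0.17, and that of Ikbke over Tbk1 between −1.01 and 0.14, with 1 library left out. Il10rb turned to 0.020 with library totals alone, and Ifnb1 ranged from −0.10 to 0.53 with 1 library left out.

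Deviations of same-numbered libraries had correlations over genes of 0.11, −0.12 and 0.19, and not every library was nearest to its own number. The highest correlation, 0.33, was between poly(I:C) replicate 2 and saline replicate 3. With 3 libraries per group these values cannot decide whether the numbers mark a pairing, and the main fit used none. The replicate block gave 171 higher and 89 lower genes and changed no member's call. With it the standard error of Ddx60 was 0.09, against 0.29 in the main fit, and that of Adar was 0.07 in both. The libraries share depth closely, and genes under a few CPM, such as Ifnb1, are the ones that counting error limits.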
